A study of Mus musculus with 81 samples.

Results

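A mutant of KYOT2 defective in binding RBPJ was compared with GFP by RNA sequencing in a mouse hybridoma line of mature T cells. The comparison rests on 6 libraries of the 81 samples in the series, 3 from cells infected with GFP-KYOT2 WWAA and 3 from cells infected with GFP alone (the control). These 6 were chosen by the names of their columns in the count table. A further group of 3 libraries, from cells given wild-type GFP-KYOT2, was used to show where the mutant and the wild-type protein differ. None of the 9 libraries is labelled as RBPJ-depleted, and the labels name no agent added to these groups. The time after infection, the promoter of the construct and any sorting or cloning of infected cells are not given in the sources used here. Each group is therefore a model of forced expression in a dividing T cell line and not of T cells in an animal. No label states whether replicates were grown as cultures of their own, so p-values measure only the spread between these libraries, which may be technical.

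KYOT2 is a splice form of the gene Fhl1, which encodes a protein built of LIM domains, zinc-binding modules that hold other proteins. RBPJ is the DNA-binding factor of the Notch pathway. Without a Notch signal it can recruit repressors, and once the Notch receptor is cut its intracellular domain joins RBPJ and turns target genes on. KYOT2 binds RBPJ through a short stretch at its end that holds a pair of tryptophans, and in WWAA (written WW/AA in the labels) this contact is defective. Setting the mutant against GFP asks what KYOT2 does in these cells when its contact with RBPJ is defective.

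Fhl1 checked the labels. It had 8286, 8068 and 7204 counts in the WWAA libraries, 9916, 15723 and 14240 counts with wild-type KYOT2, and 0, 5 and 0 counts with GFP. The other 32 matched RNA libraries of the series held 0 to 2 counts of Fhl1, so nearly all reads at Fhl1 came with the constructs. Per library total, the sum over the WWAA libraries was 4558 times that over the control libraries, with an exact 95% interval of 1953 to 14040 that covers counting error only. With library totals scaled by the trimmed mean of M values (TMM), Fhl1 was at 686 ± 27.3 CPM (counts scaled to a fixed library total) with WWAA and at 1093 ± 41.8 CPM with the wild type (mean ± SD, n = 3 each). The mutant was thus expressed less than the wild type (log2 fold change −0.67, edgeR quasi-likelihood adjusted p = 0.000393). In such bulk libraries fewer infected cells and less RNA per cell cannot be told apart. Counts per gene do not show the mutated codons, so they separate both KYOT2 groups from GFP but do not check which protein is made.

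Rbpj itself was at 144, 140 and 164 CPM with WWAA, 181, 179 and 191 CPM with wild-type KYOT2 and 140, 139 and 142 CPM with GFP. WWAA and GFP libraries overlapped, and the fitted log2 difference of 0.08 had a 95% interval of −0.04 to 0.21 (edgeR adjusted p = 0.746). Against the wild type, Rbpj was lower with WWAA (log2 −0.30, edgeR adjusted p = 0.0194); this call was lost on leaving out either of WWAA replicates 1 and 2 or any wild-type library (adjusted p = 0.0644 to 0.101).

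The libraries held 10956477 to 11814677 counts with WWAA and 9401514 to 12520913 counts with GFP, and 3 counts correspond to 0.240 to 0.319 CPM there. The T cell genes Cd3e, Cd3d, Cd3g, Cd247, Thy1, Lck, Zap70, Lat, Cd2 and Cd28 were present in every library, from 9.40 CPM for Cd2 to 232 CPM for Cd3g, before TMM scaling. B cell markers reached at most 0.176 CPM, and of the myeloid and erythroid markers only Cd68 (10.5 to 19.2 CPM) and Alas2 (1.49 to 2.45 CPM) were high enough to test. Replicate 3 stood apart in every group. The chi-square per gene between WWAA replicates 1 and 2 was 1.94, against a value of 1 for sampling noise alone. Replicates 1 and 2 gave 4.01 for the wild type and 6.64 for the control, while pairs that include replicate 3 of any group gave 13.3 to 26.2. These values include the ribosomal precursor Rn45s, whose high counts can weigh much in them, and its part was not separated. The share of the ribosomal precursor Rn45s was lowest in replicate 3 of each group, with 3.40, 3.09 and 2.04% of counts in WWAA replicates 1 to 3 and 5.56, 3.62 and 2.23% in the control. Neat1, a long noncoding RNA kept in the nucleus, was at 1356, 1282 and 624 CPM with WWAA and at 1577, 1605 and 1514 CPM with GFP. The part of these differences in the results was not tested. Results are therefore also given with the replicate number as a block and without replicate 3.

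Few genes differed between WWAA and GFP. Of 11150 genes tested, 10 passed an adjusted p of 0.05 in edgeR's quasi-likelihood test, 8 higher and 2 lower, which is 0.0897% of the genes (0.0717% higher and 0.0179% lower). Besides Fhl1, the higher genes were Ankrd37, Hk2, Slc2a1, Ccng2, Tfrc, Sla and Adgrb2, and the lower ones were Txnip and Gm15441. Over all genes the median log2 difference was 0.00046 and the interquartile range ran from −0.08 to 0.07. At an unadjusted p under 0.05 there were 472 higher (4.23%) and 449 lower (4.03%) genes, 8.26% of those tested. The groups did not overlap for 13.6% of genes. The median 95% interval extended 0.15 log2 units to either side for the 8207 genes with at least 10 CPM. This interval is not adjusted for the number of genes, and passing the adjusted threshold took more. The smallest difference that passed was 0.30 (Tfrc), and Adm at 0.75 did not pass (edgeR adjusted p = 0.0957). A gene that did not pass may therefore differ by more than 0.15. The count of 10 became 18 without WWAA replicate 3 and 6 without control replicate 2. With the replicate number as a block it was 67, 45 higher (0.404%) and 22 lower (0.197%), 0.601% together, and these held all 10 genes. Without replicate 3 in any group it was 279, 165 higher and 114 lower, and many of the 165 were histone genes.

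Of the 9 called genes other than Fhl1, 3 belong to a list of 28 glycolysis and hypoxia genes. Cells short of oxygen stabilise hypoxia-inducible factors, which bind a short core sequence near their targets and raise the uptake and breakdown of glucose. In the list, 27 genes were tested and 3 passed upward, 0 downward, against 0.0717% of all genes that passed upward. The list was chosen with earlier results of these data known, so these counts describe it and do not test it. Ankrd37, an ankyrin repeat protein gene known as a hypoxia target, was at 20.4, 23.8 and 20.0 CPM with WWAA, 16.9, 16.3 and 16.8 CPM with wild-type KYOT2 and 11.0, 11.1 and 11.6 CPM with GFP. Every WWAA library lay above every GFP library, with the wild type between them (WWAA over GFP log2 0.92, SE 0.0942, edgeR adjusted p = 0.000811). Hk2 encodes hexokinase 2, which traps glucose in the cell by phosphorylation, and was at 102, 111 and 106 CPM with WWAA, 87.0 to 97.0 CPM with wild-type KYOT2 and 70.6, 78.5 and 76.0 CPM with GFP. The WWAA libraries were again all higher (log2 0.50, edgeR adjusted p = 0.00245). Slc2a1, the glucose transporter GLUT1, was at 251, 266 and 216 CPM with WWAA and 178, 172 and 175 CPM with GFP. It was higher by 0.48 log2 units (edgeR adjusted p = 0.00575), and without control replicate 2 the adjusted p was 0.0600. Ankrd37 and Hk2 passed under each of 17 alternatives. Ankrd37 overlaps Ufsp2 in RefSeq, so some reads may be shared, and Ufsp2 itself had a log2 difference of 0.06 (edgeR adjusted p = 0.85).

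The stretches of 250 bases before the start sites of these 3 genes are shown because hypoxia-inducible factors are known to bind the cores ACGTG and GCGTG, which stand in capitals, read on either strand. They are from RefSeq, build GRCm38.p6, at chr8:45999851-46000100 (minus strand) for Ankrd37, chr6:82774455-82774704 (minus strand) for Hk2 and chr4:119108495-119108744 (plus strand) for Slc2a1.
Ankrd37: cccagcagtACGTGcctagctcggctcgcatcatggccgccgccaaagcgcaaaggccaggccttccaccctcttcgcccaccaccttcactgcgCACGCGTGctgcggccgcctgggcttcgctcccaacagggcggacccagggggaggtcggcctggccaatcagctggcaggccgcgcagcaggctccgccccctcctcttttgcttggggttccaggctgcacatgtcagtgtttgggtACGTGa
Hk2: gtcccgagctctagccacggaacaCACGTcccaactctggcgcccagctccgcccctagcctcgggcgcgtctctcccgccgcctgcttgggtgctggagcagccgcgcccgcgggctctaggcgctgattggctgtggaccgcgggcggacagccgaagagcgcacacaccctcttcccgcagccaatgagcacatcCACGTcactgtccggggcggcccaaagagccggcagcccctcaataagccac
Slc2a1: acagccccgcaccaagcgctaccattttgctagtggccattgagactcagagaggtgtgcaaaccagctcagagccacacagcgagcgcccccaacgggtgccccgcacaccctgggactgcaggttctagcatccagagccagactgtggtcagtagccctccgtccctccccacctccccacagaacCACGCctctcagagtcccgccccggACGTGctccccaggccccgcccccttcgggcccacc
Ankrd37 holds 2 matches to ACGTG and 2 to GCGTG, and the GCGTG matches overlap each other on opposite strands. Hk2 holds 2 matches to ACGTG and Slc2a1 holds 1 of each. One of these cores was found in 38.6% of 32851 RefSeq windows of this length, ACGTG in 16.6% and GCGTG in 28.2%. Of the 28 listed genes 24 had a window, 33 windows in all, and 26 of these (78.8%) held a core. Windows of a gene can overlap and hold the same site, as for Aldoa and Eno1. By gene, 22 of the 24 held a core in any window. The genes were listed for glycolysis and hypoxia, so a share above that of all windows tests nothing. ACGTG also lies within the E-box CACGTG, present in 6.02% of windows. TGGGAA, the core that RBPJ reads, was found in 21.6% of all windows and in 0 of the windows of Ankrd37, Hk2 and Slc2a1. Cores were not particular to these 3 genes. Txnip, which was lower with WWAA, held 2 matches to GCGTG. Ccng2, which was higher, held 1 match to GCGTG and 1 to TGGGAA. Both Tfrc windows held 2 matches to GCGTG, and Adgrb2 held 0 of either core. Car9, the lowest gene of the list, held 1 match to ACGTG. A match describes the letters and does not show that a factor sits there.

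**Figure D1:**
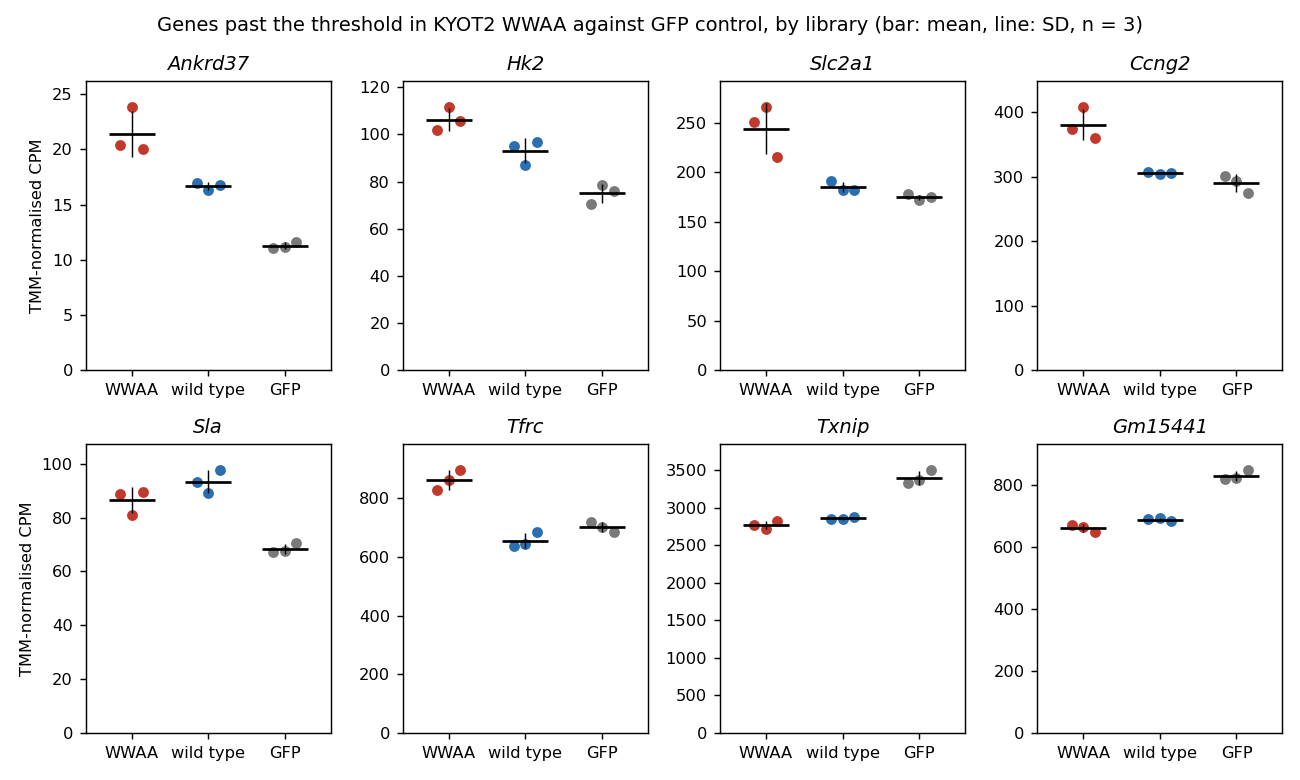
TMM-normalised CPM (vertical axes from 0) of the 8 genes other than Fhl1 that passed against GFP with at least 5 CPM, for WWAA, wild-type KYOT2 and GFP from left to right; points are libraries in order of replicate number, bars are means and lines SD (n = 3). The first 6 genes are higher in all WWAA than in all GFP libraries, and Txnip and Gm15441 are lower; Sla with wild-type KYOT2 overlaps WWAA.

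The other genes of the list mostly lay above 0 without passing. In all, 24 of 27 had a log2 difference above 0, against 50.17% of all genes. The list median was 0.11 (interquartile range 0.04 to 0.22) against 0.00046 over all genes. At an unadjusted p under 0.05, 15 were higher and 1 lower, where 4.23% of all genes were higher and 4.03% lower. Egln3, an oxygen sensor that marks hypoxia-inducible factors for breakdown, was at 368, 422 and 329 CPM with WWAA and 295, 282 and 265 CPM with GFP (log2 0.41, edgeR adjusted p = 0.0667). Adm, which encodes the vessel-widening peptide adrenomedullin, was at 19.8, 28.0 and 18.4 CPM with WWAA and 12.8, 14.8 and 11.7 CPM with GFP (log2 0.75, edgeR adjusted p = 0.0957). The lactate exporter gene Slc16a3 had a value of 0.41, the phosphofructokinase gene Pfkl 0.24 and the mitophagy gene Bnip3 0.20 (edgeR adjusted p = 0.21, 0.21 and 0.304). For each of these 5 genes all WWAA libraries lay above all GFP libraries, and all 5 passed with the replicate block, which called 8 genes of the list where 0.404% of all genes were called upward. With only the 6 libraries compared and the block, Pfkl and Bnip3 lost their calls (adjusted p = 0.0948 and 0.198). Without WWAA replicate 3 the list had 6 genes called upward, where 0.124% of all genes were. Without control replicate 2 it had 2 (0.0444% of all genes), and without replicate 3 in any group 15 (1.48% of all genes). Wild-type KYOT2 over GFP was 0.47 for Adm, 0.31 for Slc16a3, 0.18 for Egln3, 0.06 for Pfkl and 0.05 for Bnip3. WWAA over wild type did not pass for these genes (edgeR adjusted p = 0.378, 0.688, 0.158, 0.132 and 0.188). With the replicate block Egln3 and Pfkl passed there (edgeR adjusted p = 0.00693 and 0.0261).

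Other targets of the hypoxia pathway lay close to 0 or below it. Vegfa, the vessel growth factor gene, was at 255, 273 and 237 CPM with WWAA and 253, 247 and 245 CPM with GFP (log2 0.04, 95% interval −0.08 to 0.15). Pdk1, which encodes a kinase that keeps pyruvate out of mitochondria, had a difference of −0.01 (−0.16 to 0.14). Car9, a carbonic anhydrase gene, was the lowest of the list at −0.14 (edgeR unadjusted p = 0.0412, adjusted p = 0.596). Within the list, differences thus ran from −0.14 for Car9 to 0.92 for Ankrd37.

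**Figure D2:**
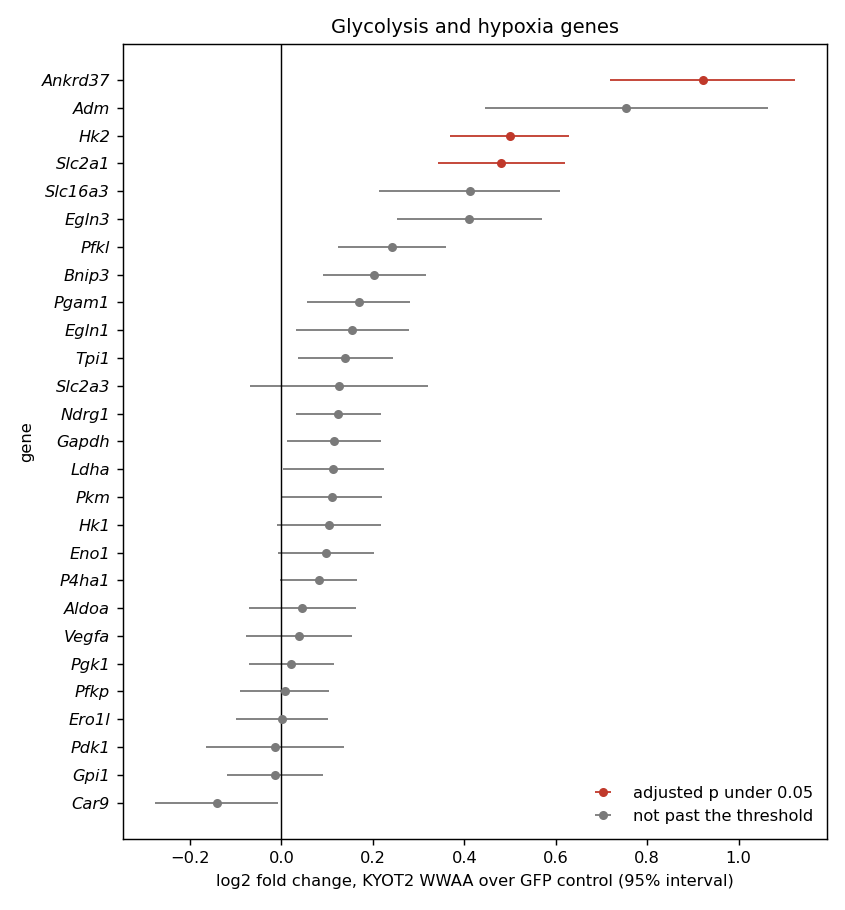
Fitted log2 fold change of WWAA over GFP (horizontal axis) with its 95% interval for the 27 tested glycolysis and hypoxia genes, ordered by size; red marks the 3 genes with an adjusted p under 0.05. Most genes lie right of 0, with Ankrd37 highest at 0.92 and Car9 lowest at −0.14.

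Txnip fell. Its protein, an arrestin that restrains glucose uptake and binds thioredoxin, has a transcript that reached 2761, 2708 and 2818 CPM with WWAA, 2853, 2841 and 2871 CPM with wild-type KYOT2 and 3320, 3369 and 3499 CPM with GFP. Both KYOT2 groups lay below every GFP library (WWAA over GFP log2 −0.30, edgeR adjusted p = 0.00762), and WWAA over wild type was −0.05 (95% interval −0.14 to 0.04). Gm15441, a noncoding gene that overlaps Txnip in RefSeq, was at 672, 666 and 649 CPM with WWAA and 821, 823 and 850 CPM with GFP (log2 −0.33, edgeR adjusted p = 0.0024). Reads of the pair may be shared, since the counting method and its use of strand are not given in the sources used here. Txnip lost its call when WWAA replicate 1, WWAA replicate 2, wild-type replicate 1 or control replicate 2 was left out (adjusted p = 0.059, 0.0997, 0.0524 and 0.0789), and Gm15441 kept it under all 17 alternatives.

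Ccng2, Tfrc and Sla rose. Ccng2, an atypical cyclin associated with arrest of the cell cycle, was at 373, 407 and 360 CPM with WWAA, 307, 304 and 306 CPM with wild-type KYOT2 and 301, 293 and 274 CPM with GFP (WWAA over GFP log2 0.39, edgeR adjusted p = 0.00575). WWAA libraries lay above both other groups, and the difference from the wild type passed too (log2 0.31, edgeR adjusted p = 0.00665). Tfrc, the transferrin receptor through which dividing cells take up iron, was at 828, 862 and 896 CPM with WWAA, 638, 643 and 684 CPM with the wild type and 720, 701 and 684 CPM with GFP. WWAA libraries lay above both other groups (WWAA over GFP log2 0.30, edgeR adjusted p = 0.0206; over wild type log2 0.40, adjusted p = 0.000366). Sla, a Src-like adaptor that dampens signals of the T cell receptor, was at 88.6, 80.9 and 89.7 CPM with WWAA and 67.4, 67.5 and 70.6 CPM with GFP (log2 0.33, edgeR adjusted p = 0.0496). Sla overlaps Tg in RefSeq, whose difference was 0.58 (edgeR adjusted p = 0.414). Against GFP, Tfrc lost its call without WWAA replicate 2, wild-type replicate 1 or 2, or any control library (adjusted p = 0.0617 to 0.197). Sla lost it without any 1 library except WWAA replicate 2 (adjusted p = 0.0523 to 0.323) and with RLE size factors (0.0510). With only the 6 libraries compared in the fit, Ccng2, Tfrc, Sla and Txnip lost their calls (adjusted p = 0.0524, 0.103, 0.110 and 0.103).

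Adgrb2, an adhesion receptor gene known from the brain, had 26, 32 and 26 counts with WWAA, 16, 26 and 15 counts with wild-type KYOT2 and 1, 4 and 2 counts with GFP (WWAA over GFP log2 3.47, SE 0.389, edgeR adjusted p = 0.00163). All libraries of both KYOT2 groups lay above the GFP libraries, which were near the floor of 3 counts, and WWAA over wild type did not pass (log2 0.64, edgeR adjusted p = 0.262). With a mean of 2.45 CPM it lies under the level of 5 CPM used for choosing genes to name, and it and Gm15441 are named here after their values were seen.

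Notch target genes were mostly too low to test. Of 20 listed, 9 had enough counts, and 0 of these passed against GFP in edgeR or in DESeq2, where 0.0897% of all genes passed in edgeR. At an unadjusted p under 0.05, 1 of the 9 was higher and 2 were lower, against 4.23% higher and 4.03% lower of all genes, and the list median was 0.01. The other 11, among them Hes5, Hey1, Dtx1 and Nrarp, held at most 14 counts over the 3 WWAA libraries and at most 15 over the 3 GFP libraries. Hes1, a repressor that is a direct Notch target, was at 1.79, 1.30 and 2.00 CPM with WWAA, 9.11, 10.04 and 8.20 CPM with wild-type KYOT2 and 2.95, 3.71 and 2.43 CPM with GFP. All WWAA libraries lay below all GFP libraries, with a difference that did not pass (log2 −0.83, 95% interval −1.35 to −0.31, unadjusted p = 0.00402, edgeR adjusted p = 0.383). Without replicate 3 in any group it passed (log2 −1.12, edgeR adjusted p = 0.0327). Notch1, the receptor gene, was at 1.11, 1.47 and 1.55 CPM with WWAA, 5.40, 5.51 and 4.30 CPM with the wild type and 0.984, 1.68 and 1.33 CPM with GFP, and WWAA and GFP overlapped (log2 0.02, 95% interval −0.60 to 0.64).

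Genes of the Notch machinery and of RBPJ complexes held no call in the filtered fit of all 9 libraries without a block. Among 24 tested receptors, ligands and processing enzymes 0 passed in edgeR or DESeq2, with 1 higher and 0 lower at an unadjusted p under 0.05 and a median of −0.0035. The 1 gene was Numb, an inhibitor of Notch, at 0.21 (95% interval 0.01 to 0.41). Among 22 tested RBPJ cofactors 0 passed in either tool, with 0 higher and 1 lower at an unadjusted p under 0.05 and a median of −0.0078. The 1 was Kmt2d, a histone methyltransferase gene, at 86.3, 78.1 and 71.3 CPM with WWAA and 123, 84.4 and 89.5 CPM with GFP, where control replicate 1 was high (log2 −0.33, edgeR adjusted p = 0.451). Kmt2d passed downward with the replicate block (edgeR adjusted p = 0.0400), which called 0.197% of all genes downward, and with no low-count filter. Without replicate 3 in any group it passed downward too (edgeR adjusted p = 0.0263), as did Ep300, where 1.02% of all genes did. There Hdac2 passed upward, where 1.48% of all genes did. Spen, a corepressor that binds RBPJ, was at 65.9, 60.9 and 63.4 CPM with WWAA, 91.7, 91.6 and 104 CPM with wild-type KYOT2 and 74.8, 64.8 and 70.6 CPM with GFP. Its WWAA and GFP libraries overlapped (log2 −0.14, edgeR adjusted p = 0.615).

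DNA replication genes, which copy the genome in S phase, had the highest list median. Of 24 tested, 23 had a difference above 0, against 50.17% of all genes, with a median of 0.15. At an unadjusted p under 0.05, 15 were higher, where 4.23% of all genes were. Yet 0 passed in edgeR and 1 in DESeq2 (Rrm2). Rrm2, a subunit of the enzyme that makes deoxynucleotides, was at 417, 441 and 419 CPM with WWAA, 356, 364 and 382 CPM with wild-type KYOT2 and 359, 375 and 373 CPM with GFP. Its WWAA libraries were above all others, by 0.21 log2 units over GFP (edgeR adjusted p = 0.195). With the replicate block Mcm3, Mcm6 and Rrm2 passed, the first 2 being subunits of the helicase that opens DNA (adjusted p = 0.0372, 0.033 and 0.00976), where 0.404% of all genes passed upward. With only the 6 libraries compared and the block, 0 of the list passed (adjusted p = 0.135, 0.146 and 0.0957 for these 3). Replication-dependent histone genes had a median of 0.09 with 18 of 20 above 0 and 0 passing in edgeR or DESeq2, 1 of them higher at an unadjusted p under 0.05. Without replicate 3 in any group, 11 histone genes and 5 DNA replication genes of these lists passed upward, where 1.48% of all genes did. The 165 genes behind that share include many more histone genes outside the list, so they are not all separate results. Among them, Hist2h3c1 and Hist2h3c2 have equal counts in all 9 libraries, and both are also among the 67 calls with the replicate block.

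T cell genes and signalling lists held few calls. Of the 31 lists, 29 had a tested member and 26 of these had none that passed; the exceptions were the glycolysis and hypoxia list, Tfrc in the activation list and Fhl1 in its own family. Cd28, a costimulatory receptor, was at 31.8, 26.0 and 28.6 CPM with WWAA, 55.2, 50.3 and 57.6 CPM with wild-type KYOT2 and 23.5, 22.9 and 21.4 CPM with GFP. WWAA lay above GFP without passing (log2 0.35, edgeR adjusted p = 0.283) and below the wild type (log2 −0.91, edgeR adjusted p = 2.5e-05). T cell activation and checkpoint genes had the lowest median, −0.08 over 17 genes, with 4 above 0, where 50.17% of all genes were. The cytokine receptor gene Il10ra had a difference of 0.51 (edgeR adjusted p = 0.246), the stress-induced mTOR inhibitor Ddit4 0.40 (0.16) and the heme oxygenase gene Hmox1 0.31 (0.304). These 3 and Cd28 passed with the replicate block (adjusted p = 0.00619, 6.5e-05, 0.00866 and 0.0488). With only the 6 libraries compared and the block, Cd28 lost its call (0.133). Wild-type KYOT2 over GFP was 0.43 for Il10ra, 0.28 for Ddit4 and 0.18 for Hmox1. WWAA over wild type did not pass for these 3 (edgeR adjusted p = 0.831, 0.545 and 0.516). Cytosolic ribosomal protein genes ranged from −0.05 to 0.05 over 25 genes with WWAA over GFP. Of the 27 lists with at least 5 tested genes, 25 had a median between −0.1 and 0.1.

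**Figure D3:**
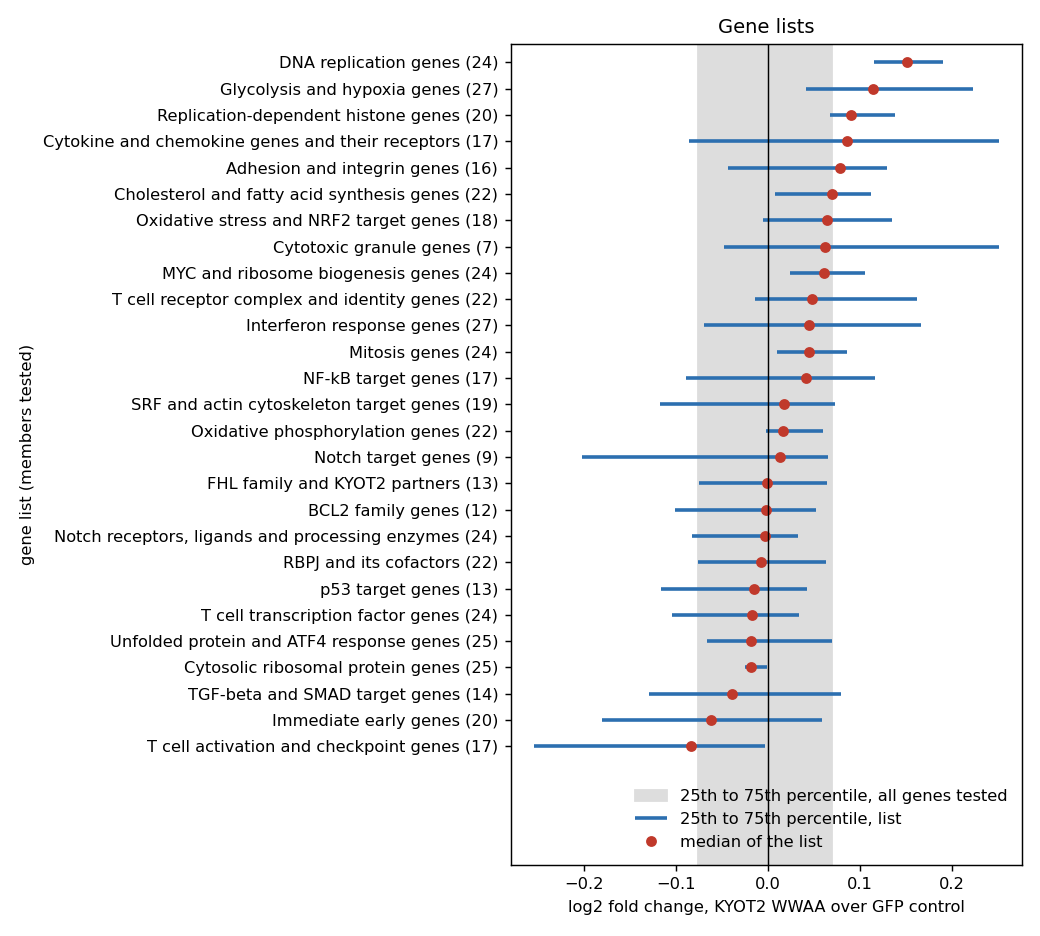
Median log2 fold change of WWAA over GFP (points) and its 25th to 75th percentile (blue lines) for the 27 gene lists with at least 5 tested members, numbers of members in parentheses; the grey band is the same range for all genes tested. The lists of DNA replication (0.15) and of glycolysis and hypoxia (0.11) have the highest medians.

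WWAA and wild-type KYOT2 differed in more genes. This comparison uses the same WWAA libraries as that with GFP, so the values of both are set side by side only. In the same fit 208 genes passed, 67 higher and 141 lower with WWAA (1.87% of those tested, 0.601% higher and 1.26% lower). The genes with the largest decreases by the rule used for naming were Lgmn, Gimap7, Gzmb, Gimap8, Gimap1 and Ncald. Lgmn, the protease legumain, was at 0.426, 0.346 and 0.182 CPM with WWAA, 21.6, 23.6 and 21.6 CPM with the wild type and 0.109, 0.531 and 0.471 CPM with GFP. The wild type was far above both (WWAA over wild type log2 −6.07, edgeR adjusted p = 3.05e-09), while WWAA and GFP overlapped and their difference was −0.28 (95% interval −1.41 to 0.85). Gimap7, Gimap8 and Gimap1 encode GTPases of lymphocytes. Gimap7 averaged 6.35 ± 1.32 CPM with WWAA, 44.2 ± 2.27 CPM with the wild type and 6.06 ± 1.28 CPM with GFP, and WWAA over wild type was −2.80 (edgeR adjusted p = 2.48e-08). Gimap8 and Gimap1 had values of −2.70 and −2.52 against the wild type, and of 0.40 and −0.31 against GFP (edgeR adjusted p = 0.673 and 0.588). Gzmb, the killer protease granzyme B, and Ncald, a calcium sensor, had −2.70 and −2.49 against the wild type (edgeR adjusted p = 0.000148 and 3.24e-05) and overlapped with GFP.

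Hes1 and Notch1 followed the same order, with WWAA over wild type at −2.43 for Hes1 (edgeR adjusted p = 1.7e-05) and −1.88 for Notch1 (edgeR adjusted p = 0.000408). Of the 9 tested Notch targets, Hes1, Notch1 and the cell cycle inhibitor Cdkn1a passed as lower with WWAA than with the wild type and 0 as higher. Of all genes, 1.26% passed as lower and 0.601% as higher. Spen was lower too (log2 −0.60, edgeR adjusted p = 0.000268). The WWAA construct reached a lower Fhl1 level than the wild type, as given above, and the part of that in these differences was not tested.

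**Figure D4:**
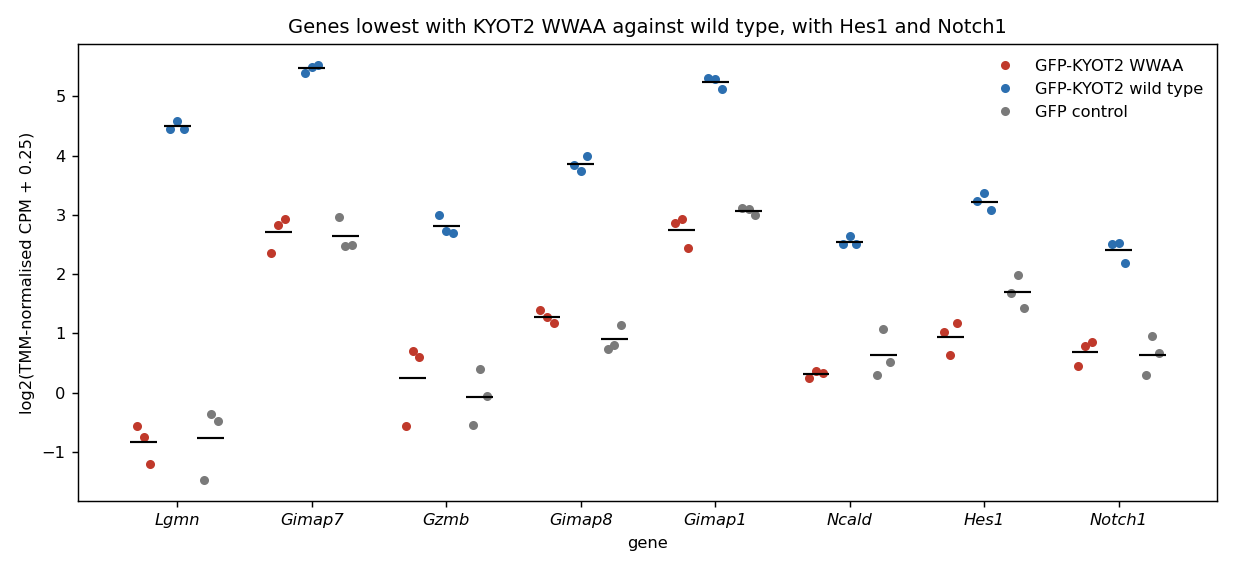
TMM-normalised CPM on the log2(CPM + 0.25) scale for the 6 genes lowest with WWAA against wild-type KYOT2 and for Hes1 and Notch1; points are libraries of WWAA (red), wild type (blue) and GFP (grey), bars are means. All wild-type libraries lie above all WWAA and GFP libraries, which overlap except for Gimap8, Gimap1 and Hes1.

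Among genes with at least 5 CPM in the higher group, the 6 largest increases with WWAA over the wild type by the naming rule ran from 0.39 to 0.58 log2 units. Under that level, Ccr2, a chemokine receptor gene, and Ly6c2, a surface protein gene of lymphoid and myeloid cells, had 2.89 and 1.87 (edgeR adjusted p = 0.000784 and 0.00664); they were named after their values were seen. Slc2a1 was at 191, 182 and 182 CPM with the wild type, below all 3 WWAA libraries (WWAA over wild type log2 0.40, edgeR adjusted p = 0.00503), and Ndrg1, another hypoxia-induced gene, passed as well (0.26, adjusted p = 0.00669). Ankrd37 and Hk2 did not pass against the wild type (log2 0.36 and 0.19, edgeR adjusted p = 0.0571 and 0.14). They passed there with the replicate block (adjusted p = 0.0209 and 0.0376). Of 24 DNA replication genes 13 were higher with WWAA than with the wild type, where 0.601% of all genes were. Mcm6 and Mcm3 are examples, at 0.19 and 0.21 for WWAA over GFP and at −0.13 and −0.15 for wild type over GFP. WWAA over wild type was 0.33 for Mcm6 and 0.35 for Mcm3. The checkpoint kinase gene Chek1 had 0.47, Lztfl1, a gene for a protein of cilium transport, 0.43, the genome stability gene Rmi2 0.58 and the annexin gene Anxa1 0.39 (edgeR adjusted p = 0.0159, 0.007, 0.0301 and 0.0334). Rmi2 lost its call without any of the WWAA or wild-type libraries (adjusted p = 0.0532 to 0.176). Anxa1 lost it without replicate 1 or 2 of WWAA or of the wild type or without control replicate 2 (0.0547 to 0.144), and Chek1 without WWAA replicate 2 or wild-type replicate 3 (0.0724 and 0.0632). Same-numbered WWAA and wild-type libraries deviated together, most in replicate 3 (r = 0.408). The values against the wild type are from the fit without a block unless stated. With the replicate number as a block 567 genes passed, 257 higher (2.3%) and 310 lower (2.78%), 5.09% together. Without replicates 1, 2 and 3 of the wild type in turn the count without a block was 92, 79 and 134, and without WWAA replicates 1 and 2 it was 113 and 98.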

How the data were processed

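RNA was measured in GFP-KYOT2 WWAA, GFP-KYOT2 wild type and GFP control cells, 3 libraries each. The authors deposited raw counts, whole numbers of reads for each of 24391 gene symbols. The submitters' processing notes name TopHat2 2.1.1, Picard, deepTools and the genome build mm9 without their roles; the counting tool, annotation and strand setting are not given in the sources used here. Of 65 columns, 41 matched a labelled RNA sample and 24 were not used.

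The 9 libraries were fitted together with 1 mean per group (edgeR 4.0.16 under R 4.3.3). The filterByExpr filter left 11150 genes, library sizes were scaled by TMM, and the prior count was 0.125. Two-sided quasi-likelihood p-values were adjusted by Benjamini-Hochberg over these genes; the script was tested on simulated data. Libraries were grouped by their titles. Alternatives were RLE factors, no filter, DESeq2 1.42.0, a replicate block, only the 6 libraries of a comparison, Rn45s left out and each library left out. Named genes are Fhl1, Rbpj, the 12 largest changes per direction against GFP (6 against the wild type) with at least 5 CPM and groups that do not overlap, and up to 4 per list by p; others were chosen after their values were seen. The members and lists were chosen with earlier results of these data known.

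Pairing was checked by the correlation of residuals across genes. Between WWAA and wild type, same-numbered libraries gave r = 0.165 to 0.408 and others −0.285 to 0.149. Between WWAA and GFP, same-numbered libraries gave 0.0349 to 0.288, with 1 pair under 0.1, and others −0.257 to 0.161. In the first comparison the ranges do not overlap, but this rests mostly on replicate 3 (same-numbered r = 0.408). Among replicates 1 and 2, same-numbered libraries gave 0.165 and 0.194 and others 0.117 and 0.149. The main fit holds no block for this comparison either, and values with the block are given beside it. In the second the ranges overlap, so the measure does not decide, and results are given without and with the block. The labels name no shared day or culture. Promoter windows are from RefSeq (GRCm38.p6), and no coordinates of the count table were used. Depth was 9401514 to 14244209 counts per library, and intervals on summed counts cover counting error only.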

Additional observations from a re-analysis of the deposited data

How the results depend on the processing

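Against GFP, the 10 calls became 66 with no low-count filter, 21 with DESeq2, 67 with the replicate block, 6 with only the 6 libraries compared and 31 with those 6 and the replicate block. Leaving out 1 library at a time gave 6 to 18. Against the wild type, the 208 calls became 395 with no filter, 567 with the replicate block, 112 with only the libraries compared and 825 with those and the block, and 79 to 239 on leaving out 1 library. Leaving out replicate 3 in every group, chosen after seeing the data, gave 279 and 629. The cause of these changes was not tested. RLE factors and leaving out Rn45s kept both counts within 1.5 times, as did DESeq2 against the wild type. Of the named genes past the threshold, 10 against GFP and 41 against the wild type, 0 turned direction under the alternatives run. The alternatives refit the same libraries or part of them, so a turn was unlikely and this count tests little. In the WWAA to GFP comparison 1 of the 3 same-number correlations lay under 0.1 and 4 of these 6 libraries correlated best with their own number (8 of 9 over all groups), a hint from the data and not from the design. With 3 libraries per group, the smallest difference from GFP that passed without a block was 0.30 log2 units (Tfrc). Some larger differences did not pass, such as Adm at 0.75. The median interval extended 0.15 log2 units to either side for genes with at least 10 CPM. That interval is not adjusted for the number of genes and is not a limit of detection. A gene that did not pass may therefore differ by more than 0.15. Notch targets at a few counts were not testable.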
